A study of Mus musculus with 12 samples.

Results

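The satellite repeats of the mouse were followed as 7 features of the deposited quantification, chosen by the names of their consensus sequences: GSAT_MM (the major, or gamma, satellite), SATMIN (the minor satellite), IMPB_01, ZP3AR_MM, SQR1_MM, SQR2_MM and SQR4_MM. They were 7 of 347 repeat features and of 37713 features in all, and no other repeat feature was named as a satellite. Each feature stands for all genomic copies of its repeat, so it has no position of its own. The consensus lengths in the files were 471 nt for GSAT_MM, 362 nt for SATMIN, 2548 nt for IMPB_01, 320 nt for ZP3AR_MM, 687 nt for SQR1_MM, 632 nt for SQR2_MM and 429 nt for SQR4_MM.

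Major satellite arrays make up the pericentromeric heterochromatin of mouse chromosomes, and minor satellite arrays lie at the centromere proper, where the kinetochore is built. Both are tandem repeats. In the early embryo the pericentromeres of the paternal and maternal pronuclei differ in their histone marks, and the arrays are transcribed for a short time before they are packed into chromocentres. LSM1, the protein that the study depleted or tagged, belongs to a ring of LSM proteins in the cytoplasm, which attaches to messages that have lost their poly(A) tail and helps to decap and degrade them.

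The 12 libraries were all made from B6D2F1 zygotes, of females 8 to 10 weeks old per the labels, collected 18 to 20 h after hCG, in 6 groups of 2 libraries. Total RNA-seq compared zygotes injected with Lsm1 siRNA (Lsm1_KD) with zygotes injected with scramble siRNA (Ctrl). The titles of these Ctrl libraries name WT. The labels place the injection in zygotes, and the scheme of the study places it in GV oocytes. RIP-seq compared zygotes injected with Lsm1_3XFlag mRNA (FLAG) with zygotes that, by their label, received Lsm1 mRNA without a tag (Ctrl). Each gave RNA recovered on anti-FLAG affinity gel (IP) and RNA of the lysate before it (Input). The titles of the latter 4 libraries name IgG, although the same anti-FLAG gel is given for them. The tagged protein came from injected mRNA and was present beside the protein of the zygote itself. The libraries of a group were biologically independent per the methods of the study, each made from pooled embryos. Those methods give a few embryos per RNA-seq library, amplified as cDNA, and far more per RIP-seq library, with another library kit. The p-values rest on the spread between libraries of a group, shared over the groups of a fit and drawn towards that of other features. In bulk libraries, fewer contributing cells and less RNA per cell cannot be told apart.

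The libraries held 4636492 to 13968315 estimated counts in the RNA-seq and 9865512 to 31586450 in the RIP-seq. All 10 oocyte and zygote markers were above 1 CPM (counts scaled to a fixed library total) in every library. Lsm1 stood at 61.7 and 69.7 CPM in Lsm1_KD against 152 and 144 CPM in Ctrl, and the fall by 1.10 on the log2 scale was called (SE 0.22, adjusted p = 0.012 from edgeR). In the RIP-seq inputs it stood at 9931 and 14731 CPM in FLAG but at 16.3 and 16.1 CPM in the Ctrl libraries, which therefore held no excess of Lsm1 RNA. FLAG IP replicate 1 stood apart from the other libraries. Repeats took 12.7% of its counts. Their share was 2.63% in the other FLAG IP library, 1.08% to 1.96% in the Ctrl IP and no more than 0.331% among inputs. Its TMM factor was 1.87 against 0.872 to 1.02 in the other RIP-seq libraries.

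The sequences below are single stretches of the major and minor satellite, read from the GRCm38.p6 genome. The features rest on Repbase consensus sequences, which were not used here, so reads need not match these letters. The ends of the stretches were set by sites of oligonucleotides that the study lists. These were an antisense oligonucleotide for the major unit and qPCR primers for the minor stretch. The major satellite unit lies at chr9:3001457-3001689, minus strand. The capitals mark the MajSat-F primer and, at the end, the site of the antisense oligonucleotide against the major satellite. The MajSat-R primer is not marked, as its best place in the unit has 5 mismatches. The minor satellite stretch lies at chr6:103649082-103649244, minus strand, and its capitals mark the overlapping sites of the primers MinSat-F and MinSat-R. The other exact MinSat-R site, at the end of the stretch, is left in lower case. The oligonucleotide itself follows, with u and t as the study lists it.
major satellite unit: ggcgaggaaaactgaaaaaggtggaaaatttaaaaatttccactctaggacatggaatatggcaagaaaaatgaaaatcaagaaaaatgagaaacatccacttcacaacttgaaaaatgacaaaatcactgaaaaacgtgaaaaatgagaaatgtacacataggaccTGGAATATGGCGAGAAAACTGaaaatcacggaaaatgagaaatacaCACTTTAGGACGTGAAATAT
minor satellite stretch: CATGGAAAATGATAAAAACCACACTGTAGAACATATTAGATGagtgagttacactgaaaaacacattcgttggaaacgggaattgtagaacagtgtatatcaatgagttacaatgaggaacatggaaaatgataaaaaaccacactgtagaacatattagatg
MajSat_ASO: auauutcacgtcctaaagug
The unit has 233 bases, of which 66.5% are A or T, and the minor stretch has 163 bases with 66.9% A or T. MajSat_ASO pairs with the strand that is printed, so RNA of that strand is its target.

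The unit belongs to an array at the start of the assembled chromosome 9. In this array the exact matches of MajSat-F and MajSat_ASO span chr9:3000345-3038164, and 51 of the 52 exact MajSat_ASO sites of the chromosome lie there. In 21 pairs of neighbouring sites the spacing was 220 to 250 bases, with a median of 234 bases. Shifted by 234 bases, the array matched itself at 71.2% of positions, the highest share of any shift from 100 to 300 bases. The shift allowed no gaps, so this share does not measure how alike aligned copies are. At 234 bases a unit, the GSAT_MM feature is 2.01 units long. NCBI RefSeq places 0 genes over the array. The minor stretch lies in an intron of Chl1, a cell adhesion gene on the plus strand, and overlaps 0 exons. The 2 exact MinSat-R sites there were 121 bases apart, and the SATMIN feature is 2.99 times that length. The minor stretch holds 1 match to the core of the CENP-B box, the binding motif of the centromere protein CENP-B (searched on both strands), the major array holds 0, and 0.0670% of 32851 promoter windows of RefSeq genes hold it. A match or its absence describes these letters only.

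Reads of the arrays could be shared with annotated transcripts only where these hold the same sequence. Of 141767 GENCODE vM21 transcripts, those of 13 genes shared at least 1 stretch of 31 bases with the chromosome 9 array in either orientation, and 0 of these genes are among the features of the files. For the minor stretch no such gene was found (0 of the same transcripts). Genes were matched to the features by name. The quantified RefSeq transcripts themselves were not searched, so sharing with them was not tested. How reads were split between the 7 satellite features, or between a satellite and another repeat, cannot be read from the values. The values also do not keep the strand, so transcripts of both orientations are counted together.

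Across the 12 libraries GSAT_MM was the leading satellite. Per length, in TPM, it ranked first of the 7 in 11 libraries, and in Ctrl replicate 1 it came after SQR4_MM, with 13.3 against 36.1 TPM. Only GSAT_MM and SQR4_MM, 2 of the 7, were above 0 in all 12 libraries. SQR1_MM and SQR2_MM were listed at 0 in all 4 RNA-seq libraries, where a floor of 3 counts over a group allows up to 0.191 CPM in Lsm1_KD and 0.140 CPM in Ctrl. Floors and intervals of this kind cover counting error only. GSAT_MM held 82.8% to 98.9% of the satellite counts in 10 libraries, but 29.3% and 62.3% in the 2 Ctrl libraries of the RNA-seq.

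**Figure D1:**
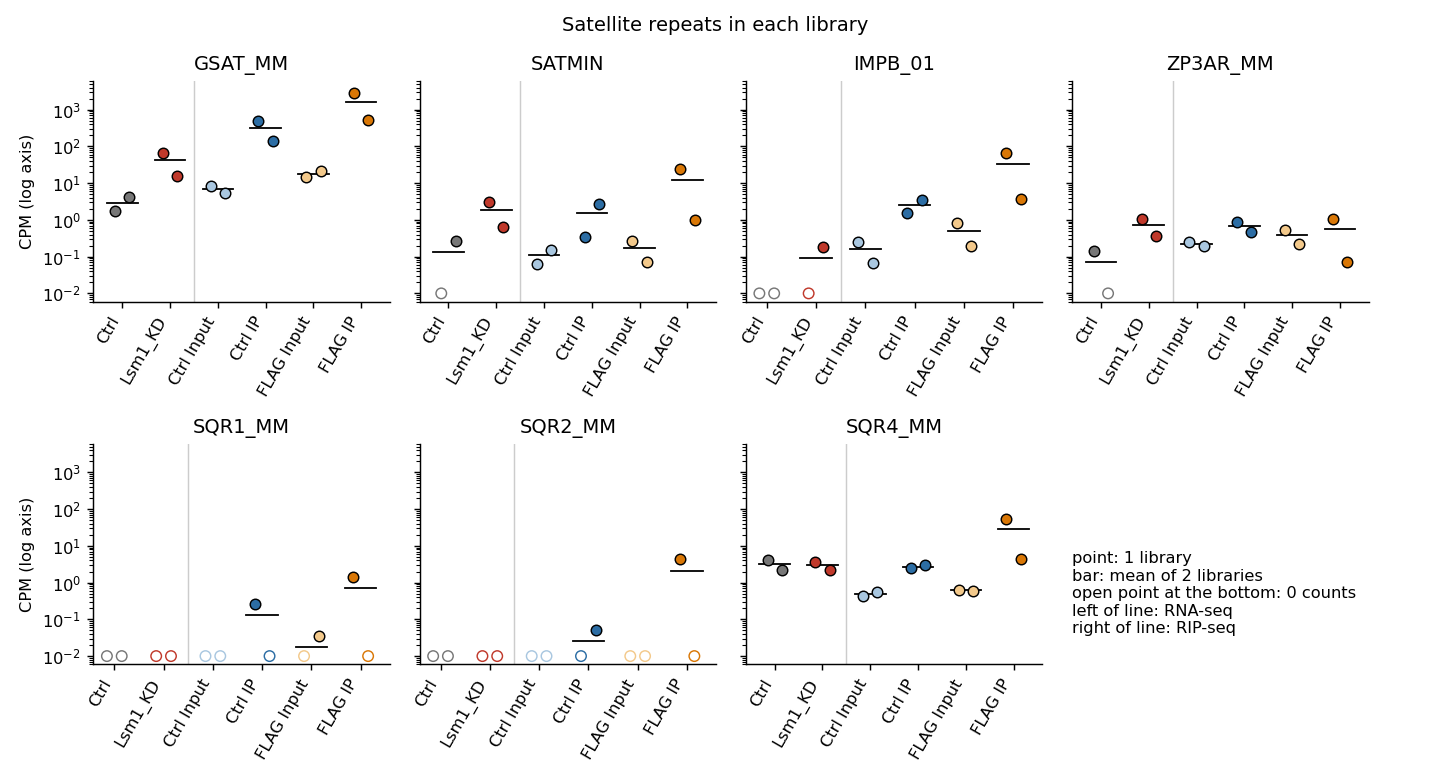
CPM of each satellite feature (vertical axis, log scale) in the 12 libraries, grouped along the horizontal axis. Each point is 1 library, bars are means of 2 libraries, and open points at the bottom mark 0 counts. GSAT_MM is higher in Lsm1_KD than in Ctrl and higher in each IP than in its Input, while SQR4_MM differs between IP and Input but overlaps between Lsm1_KD and Ctrl.

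The RNA-seq asked which RNAs change when Lsm1 is depleted. The major satellite was called higher in Lsm1_KD, and it was 1 of only 2 satellites with enough counts for the test. GSAT_MM had 315 and 178 estimated counts in Lsm1_KD and 24 and 31 in Ctrl. This is 67.9 and 16.0 CPM in Lsm1_KD, with a mean of 42.0 ± 36.7 (SD, n = 2), against 1.72 and 4.19 CPM in Ctrl, with a mean of 2.96 ± 1.75 (SD, n = 2). The groups did not overlap, but the Lsm1_KD libraries differed from each other more than the Ctrl libraries did, and the lower Lsm1_KD library was 3.82 times the higher Ctrl library. The log2 fold change was 3.93 (standard error 0.70, 95% interval 2.37 to 5.49, adjusted p = 0.0082 from edgeR). It was the 31st highest of 11335 features tested and the second highest of 115 repeats.

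Of the 7 satellites, 2 passed the filter on low counts in the RNA-seq, and 1 of these was called higher at a log2 fold change over 1 and an adjusted p under 0.05, where 5.40% of all 11335 features tested were called higher. Both Lsm1_KD libraries lay above both Ctrl libraries for 1 of the 2, as they did for 26.3% of the features tested. The other, SQR4_MM, had 3.68 and 2.16 CPM in Lsm1_KD and 4.0 and 2.26 CPM in Ctrl. Its groups overlapped, and the log2 fold change was -0.06 (95% interval -1.91 to 1.78, adjusted p = 0.97 from edgeR).

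The minor satellite was too rare for the test. SATMIN had 14 and 7 counts in Lsm1_KD and 0 and 2 in Ctrl. Summed over the libraries this is 21 counts against 2, a ratio of 14.3 per library total, with an exact interval of 3.48 to 125 for counting error. Both Lsm1_KD libraries were above both Ctrl libraries, though the lower of them had only 7 counts. ZP3AR_MM had 5 and 4 counts in Lsm1_KD against 2 and 0 in Ctrl, a ratio of 6.11 with an interval of 1.26 to 58.1. IMPB_01 had 0 and 2.04 counts in Lsm1_KD and 0 in both Ctrl libraries, so that both groups were under the floor of 3 counts.

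The change of GSAT_MM was set against the other repeats. Endogenous retroviruses (ERV1 to ERV3) and LINE-1 elements (L1) are the mobile repeats of the genome. Among 113 other repeats tested, 5 were called higher (4.42%) and 0 lower, with a median log2 fold change of 0.58, against 0.00 for 11220 genes. By class, the calls were 3 of 67 ERV2, 2 of 6 ERV3, 0 of 17 ERV1 and 0 of 17 L1 features. GSAT_MM took 4.53% and 1.39% of the repeat counts in Lsm1_KD and 0.164% and 0.411% in Ctrl, so its share within the repeats did not overlap between the groups. With library totals and scaling factors taken from the other repeats alone, an alternative added once the data had been seen, its log2 fold change was 3.41 (adjusted p = 0.0049 from edgeR).

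The call for GSAT_MM held without any 1 of the 4 libraries. Its log2 fold change was 2.49 without Lsm1_KD replicate 1, the library with 67.9 CPM and the lowest total, and 4.64 without Lsm1_KD replicate 2 (adjusted p = 0.018 and 0.00024 from edgeR). The call ended in edgeR on single transcripts in place of genes, where the log2 fold change was 3.85 with an adjusted p of 0.16 and 0 of 14580 features were called by edgeR, while 1325 higher and 1450 lower features had an unadjusted p under 0.05. DESeq2 on the same transcripts, added after seeing the data, called 738 higher and 651 lower, GSAT_MM among them (3.86, adjusted p = 0.0025).

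Markers of other cells moved with the groups of the RNA-seq. The summed level of 7 sperm markers was 7.98 to 11.4 CPM in Lsm1_KD and 3.15 to 3.52 CPM in Ctrl, with 2 of 7 above 1 CPM in both libraries of each group and Prm1, Tnp1, Tnp2 and Odf1 at 0 in both groups. The 7 markers of the 2-cell embryo summed to 25.2 to 26.3 CPM in Lsm1_KD and 51.7 to 73.7 CPM in Ctrl, with 4 of 7 above 1 CPM in both libraries of each group and Usp17lc at 0. The red blood cell markers Hba-a1, Hbb-bs and Hbb-bt were at 0 in Lsm1_KD and summed to 0.286 to 6.90 CPM in Ctrl. The 10 cumulus and granulosa cell markers summed to 13.2 to 16.2 CPM in Lsm1_KD and 12 to 16.4 CPM in Ctrl, with Amh, Inha, Fshr, Ptx3 and Foxl2 at 0 in both groups. The part of the sperm, 2-cell and red blood cell levels in the change of GSAT_MM was not tested.

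Genes that act on satellite chromatin or satellite RNA were followed as a list of 30, of which 28 were tested in the RNA-seq. The list held 3 genes called higher and 2 called lower, or 17.9%, where 8.15% of all features were called in either direction. Its median log2 fold change was -0.07 against 0.01 for all features. The list was chosen with earlier results of these data known, so these values are no test of it. Cbx1 and Cbx3 each encode an HP1 protein, a kind that binds methylated histone H3 on heterochromatin. Cbx3 had 365 and 186 CPM in Lsm1_KD and 54.4 and 131 CPM in Ctrl, a log2 fold change of 1.62 (adjusted p = 0.036 from edgeR). Cbx1 rose by 1.09 on the log2 scale (standard error 0.24, adjusted p = 0.020 from edgeR), just over the threshold of 1. The paper reports otherwise for the RNA of Cbx1, which it names Hp1β. There it rarely changed in the RNA-seq, and its qPCR difference was not significant. By immunostaining, which measures protein, the paper reports more of it in the male pronucleus after Lsm1 knockdown. Hells, a chromatin remodeller needed for DNA methylation of repeats, had 239 and 264 CPM against 126 and 114 CPM, a log2 fold change of 1.14 (adjusted p = 0.0075 from edgeR). Hdac1, a histone deacetylase, fell to 8.84 and 6.22 CPM from 45.2 and 82.3 CPM (log2 fold change -3.05, adjusted p = 0.0021 from edgeR). Drosha, which cuts primary microRNAs in the nucleus, had a log2 fold change of -1.05 (adjusted p = 0.024 from edgeR). The 2 groups did not overlap for any of these 5 genes. They were named because they were called in these same libraries, so this adds no support to the calls. Of all features tested, 26.3% had both Lsm1_KD libraries above both Ctrl libraries, and the share in the other direction was not counted. In the RIP-seq 4 of the 30, or 13.3%, were called higher in FLAG IP, a smaller share than the 20.9% of all features, and the median log2 fold change of the list was -0.56 against 0.49. In Ctrl IP 0 of the 30 were called by edgeR, where 2.12% of all features were.

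The RIP-seq asked which RNAs are recovered with tagged LSM1. In both pull-downs the major satellite was far above its lysate. In FLAG, GSAT_MM had 14.8 and 21.0 CPM in the Input, with a mean of 17.9 ± 4.39 (SD, n = 2), and 2778 and 507 CPM in the IP, with a mean of 1643 ± 1606 (SD, n = 2). Both IP libraries were above both inputs, and the lower IP library was 24.1 times the higher Input. The log2 fold change was 5.70 (standard error 0.84, 95% interval 3.87 to 7.52, adjusted p = 0.0031 from edgeR). In Ctrl, GSAT_MM had 8.52 and 5.39 CPM in the Input, with a mean of 6.95 ± 2.21 (SD, n = 2), and 494 and 136 CPM in the IP, with a mean of 315 ± 254 (SD, n = 2). Here too the libraries did not overlap, and the lower IP library was 15.9 times the higher Input. The log2 fold change was 5.32 (standard error 0.82, 95% interval 3.52 to 7.11, adjusted p = 0.0068 from edgeR).

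By TPM, GSAT_MM was the first or second of all repeats in each of the 4 IP libraries, against ranks 8 to 23 in the inputs. Among all features it ranked 14th and 48th in FLAG IP, and 58th and 126th in Ctrl IP. In CPM, the mean of the FLAG IP was 5.21 times that of the Ctrl IP, but the lower FLAG IP library, at 507 CPM, was only 1.03 times the higher Ctrl IP library. These CPM leave out the TMM factors. With them GSAT_MM stood at 1497 and 582 in FLAG IP and at 483 and 143 in Ctrl IP. For FLAG Input over Ctrl Input the median log2 fold change was 0.67 for the 319 other repeats and 0.01 for genes, and GSAT_MM ranked 57th of 324 repeats. The share of all features with no overlap between these inputs was not counted. For GSAT_MM the inputs already differed in the direction of the IP libraries, with a ratio of 2.58 of the FLAG Input mean to the Ctrl Input mean and no overlap of the libraries. That difference was not called (log2 fold change 1.35, 95% interval -0.18 to 2.88, adjusted p = 1 from edgeR, in a comparison in which 0 of 18972 features, or 0%, were called by edgeR, where 167 higher and 9 lower features had an unadjusted p under 0.05, and 1 by DESeq2).

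SATMIN, IMPB_01 and SQR4_MM were also higher in the FLAG pull-down, with lower counts and mainly through FLAG IP replicate 1. SATMIN had 7 and 2 counts in the FLAG Input and 238 and 14 in the FLAG IP, or 0.273 and 0.0716 CPM against 24.1 and 0.999 CPM. IMPB_01 had 0.810 and 0.196 CPM in the Input and 64.7 and 3.65 CPM in the IP. SQR4_MM had 0.638 and 0.600 CPM in the Input and 52.4 and 4.31 CPM in the IP. In each of these 3 features both IP libraries were above both inputs, with FLAG IP replicate 1 more than 10-fold above replicate 2 in CPM. With TMM factors FLAG IP replicates 1 and 2 stood at 13.0 and 1.15 for SATMIN, 34.8 and 4.18 for IMPB_01 and 28.2 and 4.91 for SQR4_MM.

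The log2 fold changes were 5.19 for SATMIN (standard error 1.42, adjusted p = 0.025), 5.15 for IMPB_01 (standard error 1.08, adjusted p = 0.010) and 4.58 for SQR4_MM (standard error 0.82, adjusted p = 0.0056), all from edgeR. ZP3AR_MM did not follow them. It had 14 and 6 counts in the Input and 10.6 and 1 in the IP, the groups overlapped, and its log2 fold change was -0.25 (95% interval -3.43 to 2.93, adjusted p = 0.90 from edgeR), the lowest of 324 repeats tested. On library totals without TMM factors the sign of ZP3AR_MM turned, to 0.62.

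SQR1_MM and SQR2_MM did not pass the filter. SQR2_MM had 42 counts in FLAG IP replicate 1, 1 in Ctrl IP replicate 2 and 0 in the other 10 libraries. Over the group, the FLAG IP was at least 31.4-fold higher than the FLAG Input, from the summed counts and a floor of 3 counts over the Input group, all of it from replicate 1. SQR1_MM had 14 and 0 counts in FLAG IP, 0 and 1 in the FLAG Input, 3 and 0 in the Ctrl IP and 0 in both Ctrl Input libraries. In FLAG the IP was thus 31.4 times the Input per library total, with an interval of 4.78 to 1329 for counting error.

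Of the 7 satellites, 5 passed the filter in the RIP-seq and 4 of these were called higher in the FLAG IP than in its Input, where 20.9% of all 18972 features tested were called higher. Both IP libraries were above both inputs for 4 of the 5, as for 44.7% of all features. In the Ctrl pull-down 1 of the 5 was called higher, GSAT_MM, where 2.12% of all features were called. Both Ctrl IP libraries were above both inputs for 5 of the 5, as for 39.0% of all features. SATMIN rested on few counts, at 0.0633 and 0.156 CPM before and 0.351 and 2.79 CPM after the pull-down, a log2 fold change of 3.71 (adjusted p = 0.20 from edgeR). IMPB_01 had 0.252 and 0.0674 CPM in the Input and 1.58 and 3.38 CPM in the IP, a log2 fold change of 3.70 (adjusted p = 0.11 from edgeR). For SQR4_MM these were 0.444 and 0.553 CPM in the Input, 2.43 and 2.92 CPM in the IP and a log2 fold change of 2.28 (adjusted p = 0.15 from edgeR). With the replicate number as a block, IMPB_01 (3.62, adjusted p = 0.00023) and SQR4_MM (2.27, adjusted p = 0.027) were called as well, or 3 of the 5. ZP3AR_MM had 8 and 5 counts in the Input and 10 and 9 in the IP, with a log2 fold change of 1.39 (adjusted p = 0.74 from edgeR).

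**Figure D2:**
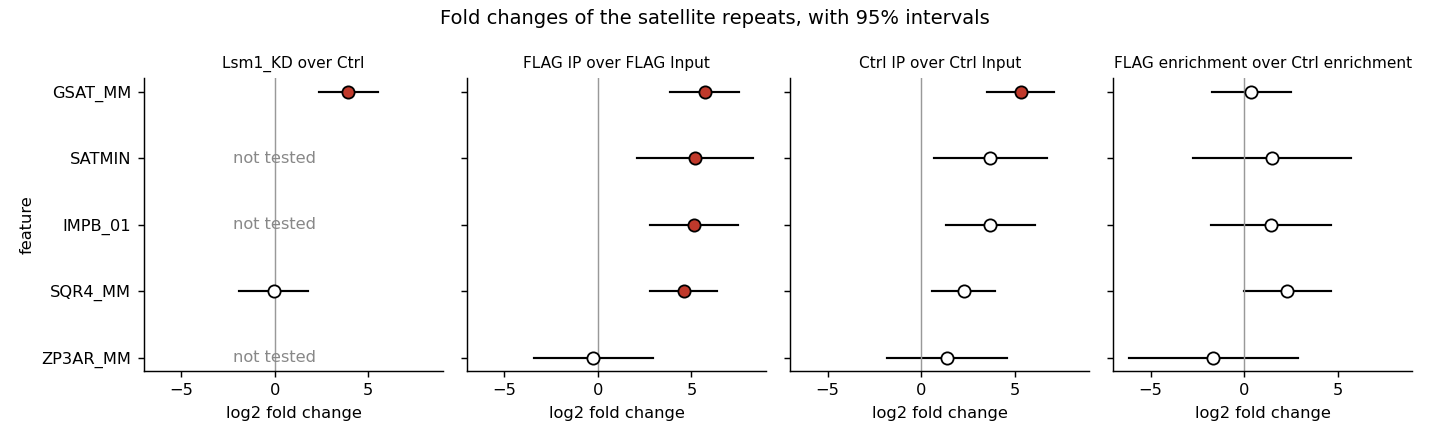
Log2 fold change (horizontal axis) of the 5 satellite features tested in at least 1 comparison, with 95% intervals from edgeR, in 4 panels. Filled points were called at a log2 fold change over 1 and an adjusted p under 0.05. GSAT_MM is filled in the first 3 panels, and in the last, FLAG enrichment over Ctrl enrichment, all 5 intervals cover 0.

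Whether the satellites were recovered better with the tag than without it was tested as the ratio of both enrichments, FLAG IP over Input over Ctrl IP over Input. This rests on the Ctrl libraries, in which, against their label, no excess of Lsm1 RNA was found. For GSAT_MM the enrichments differed by 0.38 on the log2 scale (standard error 0.97, 95% interval -1.74 to 2.51, adjusted p = 0.91 from edgeR). The interval does not show that they were alike. It allows a ratio in either direction, and the sign turned without FLAG IP replicate 1 (-0.43) and without Ctrl IP replicate 2 (-0.31). The differences were 1.48 for SATMIN (95% interval -2.74 to 5.69), 1.44 for IMPB_01 (-1.79 to 4.67) and -1.64 for ZP3AR_MM (-6.15 to 2.86). The interval of SQR4_MM only just covered 0, with a difference of 2.30 (95% interval -0.02 to 4.63, adjusted p = 0.79 from edgeR).

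No satellite was called in this comparison, and neither was any of the other 18972 features tested (0%) by edgeR, while 757 higher and 239 lower features had an unadjusted p under 0.05, and DESeq2 called 1 in each direction. Without FLAG IP replicate 2 the count of all features rose to 1710 higher and 4234 lower, and 1 satellite, SQR4_MM, was then called (log2 difference 3.05, adjusted p = 0.0032 from edgeR). In that fit the FLAG IP is the library that stood apart alone, which is assumed to vary like the other groups. Without FLAG IP replicate 1, 1 higher and 0 lower features were called, and 0 satellites.

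Repeats as a class were higher in both pull-downs, and the satellites were read beside them. Of 319 other repeats tested, 264 (82.8%) were called higher in FLAG IP, and 51 (16.0%) in Ctrl IP, with median log2 fold changes of 4.06 and 2.09 against 0.43 and 0.10 for genes. By class, L1 features had the highest shares called, 44 of 45 in FLAG and 33 of 45 in Ctrl, and ERV2 features had 149 of 183 and 15 of 183. GSAT_MM was the 14th highest of 324 repeats by log2 fold change in FLAG and the seventh highest in Ctrl. For the ratio of both enrichments the other repeats had a median of 1.63, and GSAT_MM, at 0.38, ranked 288th of 324. The log2 fold change was higher in FLAG than in Ctrl for 306 of the 324 repeats.

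**Figure D3:**
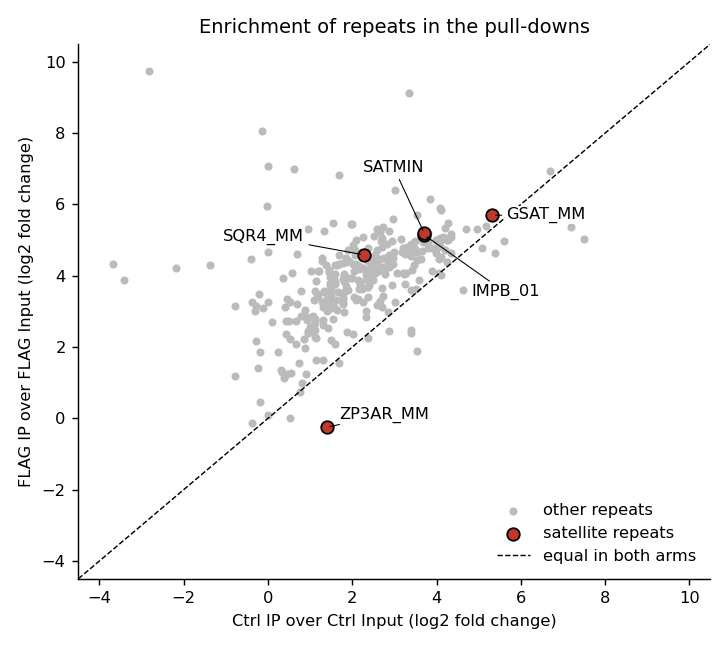
Log2 fold change of IP over Input in Ctrl (horizontal axis) and in FLAG (vertical axis) for 324 repeats, with the 5 satellite features tested in red and equality as a dashed line. GSAT_MM lies close to the line at 5.32 and 5.70, SATMIN, IMPB_01 and SQR4_MM lie above it and ZP3AR_MM below it. The log2 values of both axes come from 1 fit.

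Within the repeats, GSAT_MM also gained in both arms. In Ctrl its part of the repeat counts went from 0.442% and 0.366% before the pull-down to 2.52% and 1.26% after it. In FLAG it took 0.585% and 0.635% in the Input and 2.18% and 1.93% in the IP. The shares in the IP libraries did not overlap those in the inputs, while those of FLAG IP lay between those of the Ctrl IP libraries. FLAG IP replicate 1, the library with 12.7% repeats, therefore did not stand apart in this share.

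**Figure D4:**
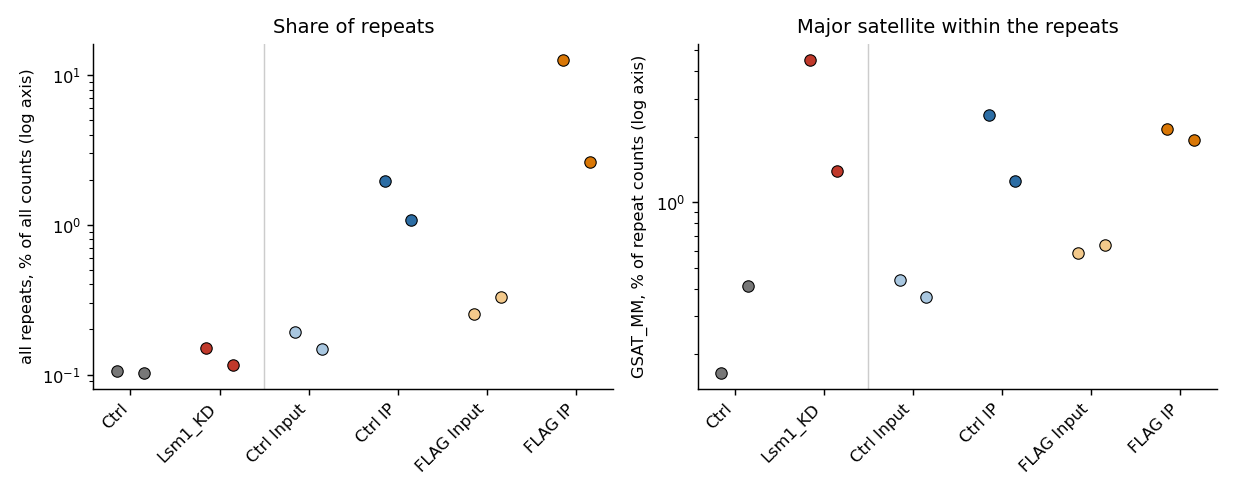
Left, all repeats as a percentage of the counts of a library (vertical axis, log scale) and, right, GSAT_MM as a percentage of the repeat counts (log scale), by group, 1 point per library. FLAG IP replicate 1 is highest on the left at 12.7%, whereas on the right it lies at 2.18%, within the range of the Ctrl IP libraries, and Lsm1_KD lies above Ctrl.

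Scaled on the other repeats alone, an alternative added once the data had been seen, the enrichment of GSAT_MM was no longer called in either arm. Its log2 fold change was then 1.93 in FLAG (adjusted p = 0.19) and 3.08 in Ctrl (adjusted p = 0.10), both from edgeR, and the difference between the arms turned to -1.15. On library totals without TMM factors the median of all features in FLAG IP over Input moved from 0.49 to 1.17 and GSAT_MM moved from 5.70 to 6.53, so that most of its shift was that of the median. The call in Ctrl also ended without Ctrl Input replicate 2 (5.04, adjusted p = 0.091) and without Ctrl IP replicate 1 (4.19, adjusted p = 0.063), and both calls ended in edgeR on single transcripts (adjusted p = 0.066 in FLAG and 0.13 in Ctrl). Without FLAG IP replicate 1, GSAT_MM stood at 4.82 in FLAG (adjusted p = 0.00049) and SQR4_MM at 2.79 (adjusted p = 0.014). IMPB_01 fell to 2.88 and kept its call (adjusted p = 0.049), while SATMIN lost its call (2.53, adjusted p = 0.20). In Ctrl, SATMIN went from 3.71 to 1.44 without Ctrl IP replicate 2.

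Markers of the 2-cell embryo moved with the pull-downs as well. Their sum was 163 to 244 CPM in FLAG IP, 198 to 258 CPM in Ctrl IP and 52.6 to 65.0 CPM in the inputs, with 7 of 7 above 1 CPM in both libraries of each of the 4 groups. The 10 oocyte and zygote markers summed to 2698 to 3260 CPM in FLAG IP, to 4982 to 5470 CPM in Ctrl IP and to 5608 to 6419 CPM in the inputs. The cumulus and granulosa cell list summed to 17.3 to 62.0 CPM in the FLAG IP, with 6 of 10 above 1 CPM in both libraries, and to 13.6 to 22.8 CPM in the other RIP-seq groups. The sperm list summed to 6.92 to 20.5 CPM in the FLAG IP, 10.8 to 16.7 CPM in the Ctrl IP and 7.91 to 9.37 CPM in the inputs. The red blood cell list summed to 0.491 to 4.65 CPM in FLAG IP and 0.264 to 1.49 CPM in Ctrl IP, against 0.0528 to 0.564 CPM in the FLAG Input and 0.0188 to 0.0633 CPM in the Ctrl Input. The part of these levels in the enrichment of the satellites was not tested.

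The features whose levels followed GSAT_MM most closely were taken by the correlation of log2(CPM + 0.5) over the 12 libraries, centred within the RNA-seq and within the RIP-seq, among 11427 features with a mean of at least 50 counts. The closest were Ppp1r8 (Pearson r = 0.985), Gpc6 (r = 0.981), the LINE-1 feature L1MdTf_III (r = 0.977), Tapbpl (r = 0.977) and the transcript NM_175692 (r = 0.975), and 19 of the 100 closest were repeats. For SATMIN, compared with 11428 features, they were Pacc1 (r = 0.980), Syndig1l (r = 0.979), Ggcx (r = 0.970), Pigv (r = 0.966) and Scpep1os (r = 0.962), and 3 of the 100 closest were repeats. The share of repeats among all features compared was not counted, so neither count of repeats has a background beside it. The points share libraries and depth, and FLAG IP replicate 1 is the highest point for both satellites, so these values describe the libraries and carry no test.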

How the data were processed

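Total RNA-seq and RIP-seq of mouse zygotes gave 12 libraries in 6 groups of 2, grouped by the labels. The authors quantified 37713 features (37366 RefSeq transcripts and 347 repeats) with Salmon and deposited an estimated count and a TPM value per feature and library. The labels name Trimmomatic, FastQC, Salmon and mm10. How Salmon shared reads among repeat features is fixed in these values.

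Estimated counts were summed by gene (37072 of 37366 transcripts matched a gene name, and the others were kept single) and rounded, giving 25091 genes and repeats. CPM scales estimated counts by the library total. Quasi-likelihood models (edgeR 4.0.16 under R 4.3.3) were fitted with TMM factors and filterByExpr across all features, once for the 4 RNA-seq and once for the 8 RIP-seq libraries, without a replicate block. A call needed an absolute log2 fold change over 1 and a Benjamini-Hochberg adjusted p under 0.05. Standard errors were taken from the F statistic. The fits were tested on simulated data. With 2 libraries against 2, an exact permutation test of a single value cannot go below p = 0.333, so none was used. Intervals on summed counts and the floor of 3 counts cover counting error only.

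Alternatives were DESeq2 1.42.0, other scalings, no filter, limma 3.58.1 on log2(TPM + 1), single transcripts, a replicate block, other sets of libraries and each library left out. Scaling on the other repeats and DESeq2 on single transcripts were added after seeing the data. Named were the 7 satellites, Lsm1, genes of the list of satellite factors that were called in the RNA-seq (at most 6) and the 5 features most like GSAT_MM and SATMIN. NM_175692 has no gene name in the tables used. The members and lists were chosen with earlier results of these data known. Sequences were read from GRCm38.p6 with Python 3.11.15.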

Additional observations from a re-analysis of the deposited data

How the results depend on the processing

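GSAT_MM kept its direction under all 15 alternatives in Lsm1_KD over Ctrl and all 20 in each of FLAG IP and Ctrl IP over Input, and its call under 14, 18 and 16 of them. In edgeR on single transcripts 0 satellites were called in the 3 comparisons, with GSAT_MM at 3.85 in Lsm1_KD over Ctrl, 5.89 in FLAG and 5.33 in Ctrl. Scaled on the other repeats, 1 satellite was called in FLAG (ZP3AR_MM, lower) and 0 in Ctrl, GSAT_MM stood at 1.93 and 3.08 and its difference between the arms at -1.15, and ZP3AR_MM turned to -0.74 in Ctrl. The difference between the arms then turned to -1.05 for SATMIN and -0.97 for IMPB_01, and FLAG Input over Ctrl Input to -0.04 for SATMIN and -0.36 for SQR4_MM. That scaling moved the median of all features to -0.46, -2.94 and -1.96 in the 3 comparisons, from 0.01, 0.49 and 0.12. Limma on TPM called 2 satellites in FLAG. In Ctrl, DESeq2 called 2, no filter 4, and the 4 libraries of that arm alone 3. In FLAG, ZP3AR_MM turned to 0.62 on library totals and 0.10 in DESeq2 on single transcripts. As a ratio of mean shares, GSAT_MM within the repeats rose 3.37 times in FLAG and 4.68 times in Ctrl, and within all counts 91.8 and 45.3 times. The causes of these shifts were not tested.

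With each library left out, GSAT_MM ranged from 2.49 to 4.69 in Lsm1_KD over Ctrl, from 4.82 to 6.23 in FLAG, from 4.19 to 5.94 in Ctrl and from -0.43 to 1.44 for the difference between the arms. Satellites called ranged from 2 to 5 in FLAG, 0 to 4 in Ctrl and 0 to 1 for the difference. SQR4_MM ranged from -0.50 to 0.32 in Lsm1_KD over Ctrl and ZP3AR_MM from -2.31 to 0.51 in FLAG. For the difference, SATMIN ranged from -1.15 to 3.66 and IMPB_01 from -0.78 to 2.84, and SATMIN from -0.48 to 1.42 in FLAG Input over Ctrl Input. In FLAG, SATMIN was also not called without FLAG Input replicate 1 (6.35) or 2 (4.53), and IMPB_01 not without FLAG Input replicate 2 (4.43).

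Counts over all features moved as well. In FLAG IP over Input, edgeR called 3972 higher and 969 lower, against 5399 and 2000 in DESeq2, 488 and 2021 in limma, 56 and 11632 scaled on the other repeats, 4 and 3 in edgeR on single transcripts, 472 and 5 without FLAG Input replicate 1, and 7296 and 5149 without FLAG IP replicate 2. In Ctrl IP over Input it called 403 higher and 1 lower, against 1313 and 5 in DESeq2, 131 and 1 on library totals, 126 and 1351 scaled on the other repeats, 6 and 0 in edgeR on single transcripts, 1597 and 17 with no filter, and 111 and 0 without Ctrl Input replicate 2. In Lsm1_KD over Ctrl the 612 higher and 312 lower became 370 and 613 in limma, 294 and 1555 scaled on the other repeats, 0 and 0 in edgeR on single transcripts, and 339 and 153 with all 12 libraries in one fit.

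The Input was drawn from the lysate used for the IP, per the methods, but no source used here says that equal replicate numbers mark 1 lysate. Deviations from the group means correlated between same-numbered libraries at -0.112 (Lsm1_KD and Ctrl), 0.115 (FLAG IP and Input) and 0.058 (Ctrl IP and Input) and the numbers were not taken as pairs in the reported fit. With the replicate block, GSAT_MM stood at 3.68, 5.57 and 5.10 in the 3 comparisons and 3 satellites were called in Ctrl. Over all features, the block gave 411 higher and 188 lower in Lsm1_KD over Ctrl, 4151 and 1813 in FLAG, and 1436 and 18 in Ctrl. Depth limits the minor satellite and the rarer satellites, of which SATMIN had at most 14 counts in an RNA-seq library.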
